A study of Mus musculus with 8 samples.

Results

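The miRNAs described here are those best known from nervous tissue and liver, looked for in 8 mouse hearts: miR-9, miR-124, miR-128, miR-129, miR-138, miR-219a and miR-219c from the nervous system, and miR-122 with its antisense partner miR-122b from the liver. They were chosen by name from the 8 deposited count tables, whatever species a row was listed under, and no value enters the rule. The choice held 16 of the 764 hairpin entries listed with counts, which gave 14 of 693 miRNAs once entries of the same name and arm were summed. None of the 16 entries was a mir-124 hairpin, so miR-124, among the most abundant miRNAs of the brain, is not described further. The 16 entries held 577519 counts in all, of which 89.9% lay on the 3' arm of mir-128 and 8.57% on mir-9.

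The hearts came from wild-type C57Bl6/J mice of 4 to 6 weeks, 4 female and 4 male, and the comparison asks which miRNAs differ between the sexes. Each heart was extracted on its own, with enrichment for RNA under 200 nt, and gave 1 library, so replicates are separate animals of the same untreated genotype. Whole hearts were used, which hold blood, vessels and nerve fibres beside heart muscle. In such samples fewer cells of a type and less RNA per cell cannot be told apart.

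A miRNA is cut from a hairpin whose arms each carry a candidate mature strand of about the same length. One strand is usually kept and guides silencing through its seed, while the other is degraded. Nervous tissue is known for miR-124 and miR-9 in neurons and their progenitors, miR-128, miR-129 and miR-138 in neurons, and miR-219 in oligodendrocytes, where it promotes myelination. miR-122 is the dominant miRNA of hepatocytes, where it acts on cholesterol and lipid metabolism.

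The sequences below, from the RefSeq table for GRCm38, are those the results turn on. They are written 5' to 3' with the seed (bases 2 to 8) in capitals. The first is made by both mir-128 hairpins, the second by all 3 mir-9 hairpins, the third by both mir-129 hairpins and the fourth by both mir-138 hairpins. The last 3 are given as placed at the mir-219a-1 locus and its opposite strand. Of the mir-219a hairpins only mir-219a-1 was listed with counts. No seed is shared between any 2 of these 7 strands or with another mature strand in the table.
miR-128-3p: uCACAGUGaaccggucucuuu
miR-9-5p: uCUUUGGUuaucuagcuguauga
miR-129-5p: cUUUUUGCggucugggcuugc
miR-138-5p: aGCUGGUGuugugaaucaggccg
miR-219a-5p: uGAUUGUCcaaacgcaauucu
miR-219a-1-3p: aGAGUUGCgucuggacgucccg
miR-219c-5p: gGACGUCCagacgcaacucucg

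Libraries held 29900500 to 38894987 counts, and the 16 entries took between 0.153% and 0.303% of the counts on mature arms. Levels are given as CPM, the usual counts scaled to a common total of mature counts per library, and adjusted between libraries with TMM factors that ran from 0.897 to 1.21. The highest factor belonged to female replicate 3, which also had the lowest level of several abundant miRNAs. The label of the tissue was checked on heart muscle miRNAs. miR-499-5p, encoded in a myosin gene, averaged 5400 ± 1918 CPM in females against 4455 ± 1269 CPM in males, and miR-208a-3p, encoded in the cardiac myosin gene Myh6, averaged 316 ± 177 CPM in females against 265 ± 74.4 CPM in males (SD, n = 4 each). Of the miRNAs on a list for red cells (mir-144, mir-451a and mir-486), miR-451a-5p varied widely between hearts. On that list miR-486a-5p and miR-486b-5p varied less. miR-451a-5p averaged 88.4 ± 50.8 CPM in females against 382 ± 359 CPM in males, with 895 CPM in male replicate 2. miR-486a-5p averaged 3910 ± 1034 CPM in females against 4239 ± 519 CPM in males (SD, n = 4 each).

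A miRNA with counts in all 8 hearts is called steady here, and one with counts in 1 to 7 hearts sporadic. Of the 14 miRNAs, 9 were steady (64.3%), beside 496 of all 693 (71.6%). The 9 cover about 3 orders of magnitude, so being listed in every heart and being abundant are separate matters. In order of mean level over the 8 hearts they were miR-128-1-3p, miR-128-2-3p, miR-9-5p, miR-129-5p, miR-219a-1-3p, miR-122-5p, miR-122b-5p, miR-9-3p and miR-138-1-5p. The first of these ranked 52 among the 693 and miR-9-5p ranked 115, while miR-122-5p ranked 378. In this order the ranges over the 8 hearts did not overlap between miR-128-2-3p and miR-9-5p, between miR-9-5p and miR-129-5p, or between miR-129-5p and miR-219a-1-3p. From miR-219a-1-3p downwards the ranges of neighbours overlapped, and miR-122-5p was higher than miR-122b-5p in 5 of 8 hearts only.

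**Figure D1:**
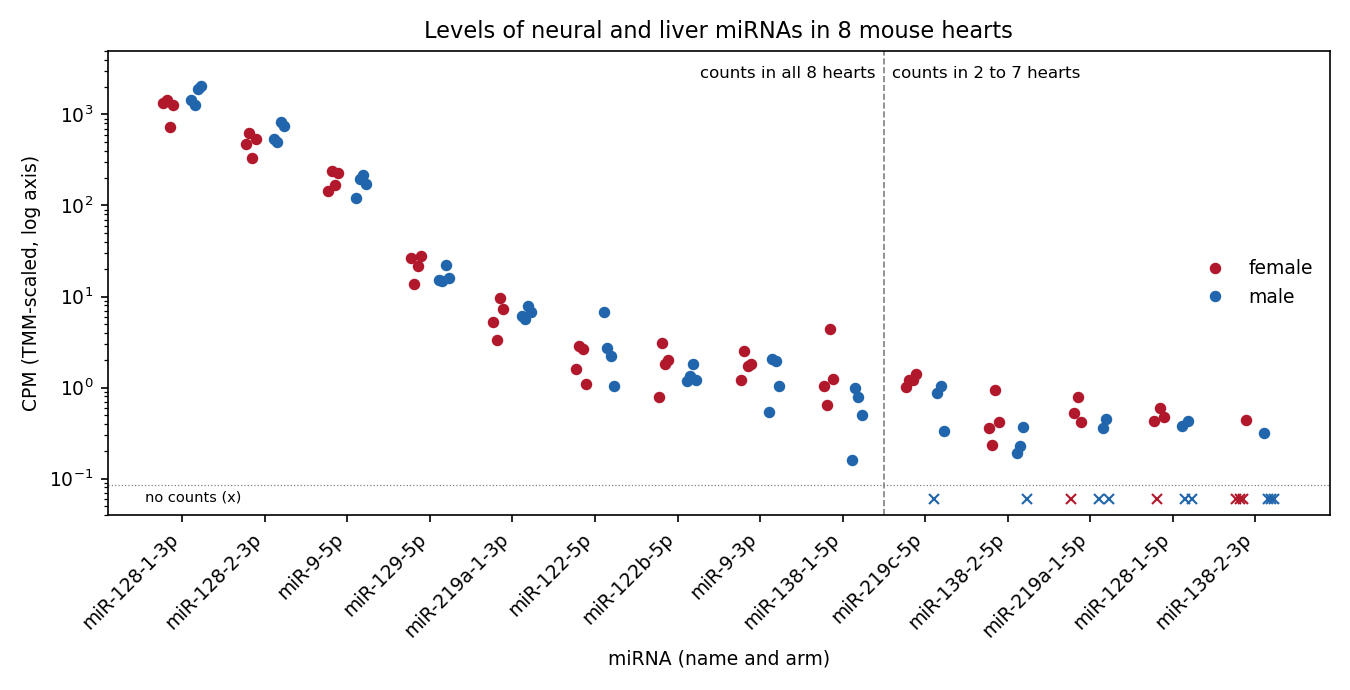
Level of each of the 14 miRNAs in each heart, in TMM-scaled CPM on a log axis, with a point per heart, female hearts left of male hearts, and a cross below the dotted line for a heart with no counts. miR-128-1-3p lies between 720 and 2067 CPM in every heart, while the miRNAs from miR-122-5p downwards lie at or below 6.75 CPM.

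miR-128 is transcribed from introns of protein-coding genes and is enriched in neurons, and in mice it has also been studied in heart muscle cells. Its 2 hairpins, mir-128-1 (chr1:128202361-128202430, plus strand, in an intron of R3hdm1) and mir-128-2 (chr9:112118636-112118711, minus strand, in an intron of Arpp21), carry the same mature 3' strand. The entry for miR-128-1-3p held 1320, 1455, 720 and 1270 CPM in the female hearts and 1456, 1282, 1894 and 2067 CPM in the male hearts. Female replicate 3 was the lowest of all 8, and the other female hearts lay within the male range or just outside it. The entry for miR-128-2-3p held 469, 618, 332 and 531 CPM in the female hearts and 531, 493, 828 and 750 CPM in the male hearts. It followed the same pattern, and in 8 of 8 hearts it stood below miR-128-1-3p. With both entries summed, miR-128-3p averaged 1679 ± 438 CPM in females against 2325 ± 522 CPM in males (SD, n = 4 each) and ranked 43 of all miRNAs. This placed it above miR-208a-3p in rank, although CPM of different miRNAs also carry the unequal capture of each sequence by the library chemistry.

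How much of miR-128 came from each locus is only partly readable, because the mature strand is identical. The 2 hairpins are shown with that strand in capitals, since the bases around it decide which reads can be placed.
Mir128-1 hairpin: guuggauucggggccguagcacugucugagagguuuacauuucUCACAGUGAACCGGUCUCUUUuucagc
Mir128-2 hairpin: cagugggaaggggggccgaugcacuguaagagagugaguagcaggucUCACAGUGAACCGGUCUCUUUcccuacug
Before the 21-base mature strand the hairpins share 2 bases, and after it they share 0, so a read that runs on at its 3' end can be placed at 1 locus. Reads listed as unique to mir-128-1 made up 45.4% ± 4.56 of miR-128-3p counts in females against 48.0% ± 3.81 in males, those unique to mir-128-2 made up 3.91% ± 0.195 in females against 3.71% ± 0.359 in males, and the rest were shared (SD, n = 4 each). Among placeable reads those matching mir-128-1 outnumbered those matching mir-128-2 by 12.3-fold over all hearts, with a range of 10.9-fold to 14.1-fold over single hearts. For a read that runs on at its 3' end, the next base decides the match, u in mir-128-1 and c in mir-128-2. The ratio therefore counts matches, and the output of each locus was not tested. Reads that match the mature strand exactly were listed in nearly equal number at both entries, 70759 and 70762 over all hearts. Those cannot be placed, and the 12.3-fold ratio does not extend to them. Reads elsewhere on the hairpin differed in the same direction, with 21605 counts on mir-128-1 (5.50% of its counts) and 344 on mir-128-2 (0.232%).

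**Figure D2:**
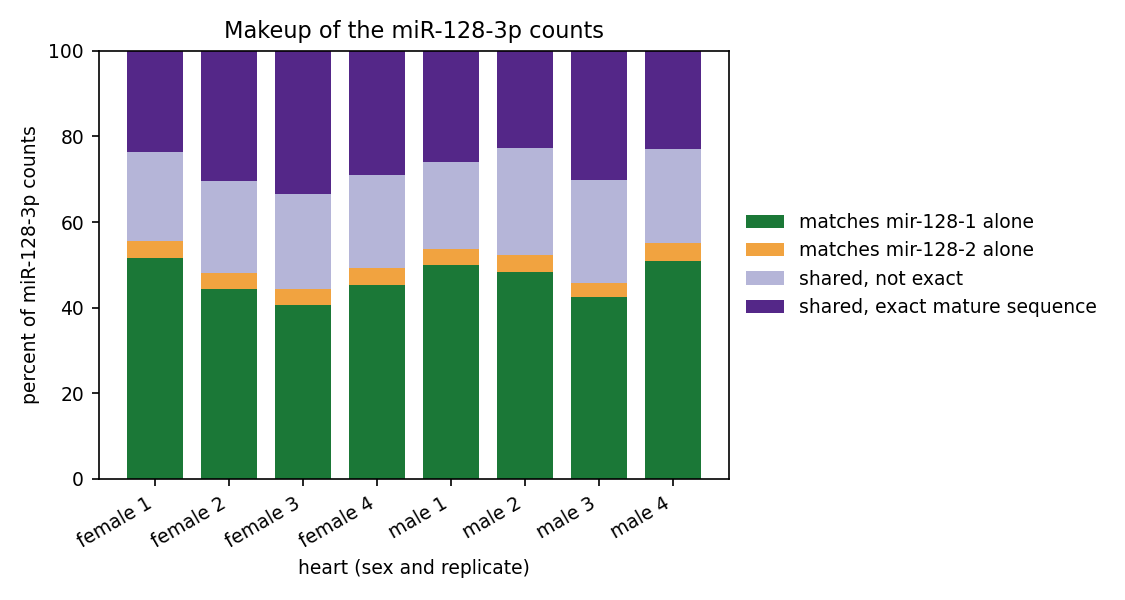
Make-up of miR-128-3p counts in each heart, in percent of all its counts, as stacked bars of reads that match mir-128-1 alone, reads that match mir-128-2 alone, shared reads that are not exact and shared exact reads, with female hearts left of male hearts. Reads unique to mir-128-2 stay between 3.31% and 4.13% in all 8 hearts.

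miR-9 acts in neural progenitors and neurons, where it restrains progenitor factors. Its 3 hairpins are mir-9-1 (chr3:88215598-88215686, plus strand, in an intron of the lincRNA Gm3764), mir-9-2 (chr13:83738814-83738885, plus strand, in an exon of the lincRNA C130071C03Rik) and mir-9-3 (chr7:79505264-79505353, plus strand, in an intron of Mir9-3hg). No mature read was unique to 1 of them, so the 3 entries were summed. miR-9-5p held 143, 240, 167 and 230 CPM in the female hearts and 121.8, 195, 215 and 172 CPM in the male hearts. The groups overlapped throughout and no heart lacked it. Its coefficient of variation over the 8 hearts was 22.6%, beside a median of 27.0% over the 496 steady miRNAs. The 3' arm gives a different miRNA with a seed of its own, and it was far lower. miR-9-3p held 1.22, 2.52, 1.72 and 1.81 CPM in the female hearts and 0.539, 2.06, 1.95 and 1.04 CPM in the male hearts.

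miR-129-5p, which is known from neuronal synapses and excitability, held 26.2, 13.9, 21.4 and 27.8 CPM in the female hearts and 15.1, 14.6, 22.0 and 15.8 CPM in the male hearts. Female replicate 2 was the lowest of all and male replicate 3 stood above the other male hearts, so the groups overlapped. The hairpins are mir-129-1 (chr6:29022619-29022691, plus strand, in an exon of the lincRNA Gm3294) and mir-129-2 (chr2:94241364-94241453, minus strand, in an intron of Mir670hg). All their mature reads were shared, and each entry held 2552 counts over the 8 hearts. Mir129b lies opposite mir-129-2, and without a stated use of strand the reads of such a pair cannot be told apart.

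miR-219 is a miRNA of oligodendrocytes, and it is its 5' strand that is known to promote myelination. In these hearts the other strand was the one listed in quantity. miR-219a-1-3p held 5.21, 3.33, 9.67 and 7.28 CPM in the female hearts and 6.09, 5.71, 7.96 and 6.79 CPM in the male hearts. The groups overlapped, at a mean of 6.37 ± 2.73 CPM in females against 6.64 ± 0.990 CPM in males (SD, n = 4 each). miR-219a-1-5p held 0, 20, 29 and 14 counts in the female hearts and 0, 11, 15 and 0 counts in the male hearts. Over all hearts the 3' arm held 1704 counts and the 5' arm 89. The mir-219a-1 hairpin (chr17:34024983-34025092, minus strand) lies in an exon of the lincRNA Gm26940.

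Mir219c lies opposite mir-219a-1 (chr17:34025012-34025071, plus strand), and miR-219c-5p is the reverse complement of miR-219a-1-3p over 20 bases, as the sequences above show. miR-219c-5p held 28, 47, 45 and 48 counts in the female hearts and 0, 27, 34 and 10 counts in the male hearts. Male replicate 1 lacked it, and 0 of its 239 counts matched the listed mature sequence exactly. The opposite strand of mir-9 gave a like picture. miR-9b-3p, outside the chosen names, is shown because it is the reverse complement of miR-9-5p over 21 bases (chr3:88215613-88215633, minus strand).
miR-9b-3p: aUACAGCUagauaaccaaaga
It held 70 to 235 counts in every heart, which was 1.55% to 2.85% of the miR-9-5p count, and 0 of its 1104 counts matched exactly. Whether counting used strand is not given in the sources used here, so reads of these opposite-strand pairs cannot be told apart.

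miR-138 is known from dendritic spines of rat neurons and, in zebrafish, from the patterning of the heart. Its 2 hairpins, mir-138-1 (chr9:122682876-122682974, plus strand, in an exon of the pseudogene Gm47135) and mir-138-2 (chr8:94324311-94324381, plus strand, in an exon of the lincRNA C78859), share the mature 5' strand. Summed over both entries, miR-138-5p held 39, 34, 198 and 56 counts in the female hearts and 11, 37, 38 and 15 counts in the male hearts. Female replicate 3 held more than the other 7 hearts, and the groups overlapped. miR-138-1-5p alone had a coefficient of variation of 109%, the highest of the 9 steady miRNAs. The 93 counts listed at miR-138-2-5p were all shared with mir-138-1 and were absent in male replicate 4 only. No read of the 5' strand was therefore unique to mir-138-2.

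miR-122, the hepatocyte miRNA, was in every heart and at a low level. It lies on chromosome 18 (chr18:65248861-65248926, plus strand) in an exon of a lincRNA. miR-122-5p held 44, 110, 98 and 37 counts in the female hearts and 213, 84, 73 and 31 counts in the male hearts. The single highest heart was male replicate 1, with 6.75 CPM, and the other 7 hearts lay between 1.04 and 2.86 CPM. The mean was 2.05 ± 0.849 CPM in females against 3.19 ± 2.48 CPM in males (SD, n = 4 each). Its coefficient of variation was 69.5%, the second highest of the 9.

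miR-122b is annotated at the same place (chr18:65248863-65248921), and the tables list it under a mouse and a human entry. Together these held 22, 118, 66 and 67 counts in the female hearts and 37, 41, 59 and 36 counts in the male hearts. As an antisense partner its 5' strand faces the 3' arm of mir-122, which held 0 counts, so it is set here beside the other arm. Without a stated use of strand, reads of that 3' arm and of miR-122b-5p cannot be told apart. The count of miR-122b-5p did not follow that of miR-122-5p from heart to heart. It was 181% of the miR-122-5p count in female replicate 4 and 17.4% of it in male replicate 1. Pearson's r of their log2 CPM was 0.06 and Spearman's rho was 0.07 over the 8 hearts, which share library depth and scaling. Most counts of miR-122b-5p were exact matches, at 362 of 446. miR-9b-3p and miR-219c-5p had none, and they face the arm of their partner that was listed in quantity. No test was made of that difference.

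The sporadic miRNAs were 5 of the 14. miR-219c-5p and miR-138-2-5p had counts in 7 hearts, miR-219a-1-5p and miR-128-1-5p in 5, and miR-138-2-3p in 2. miR-138-2-5p is the same strand as the steady miR-138-1-5p, and with both entries summed every heart had counts. Which of these 2 entries is called steady thus depends on how shared reads were listed. miR-128-1-5p was listed under the human entry alone, with 12, 0, 22 and 16 counts in the female hearts and 12, 0, 14 and 0 counts in the male hearts, all exact. miR-138-2-3p held 15 counts in female replicate 4, under the human entry, and 10 in male replicate 1, under the mouse entry. The mouse mir-128 hairpins had no 5' count in any heart. None of the 5 exceeded 1.43 CPM in any heart.

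**Figure D3:**
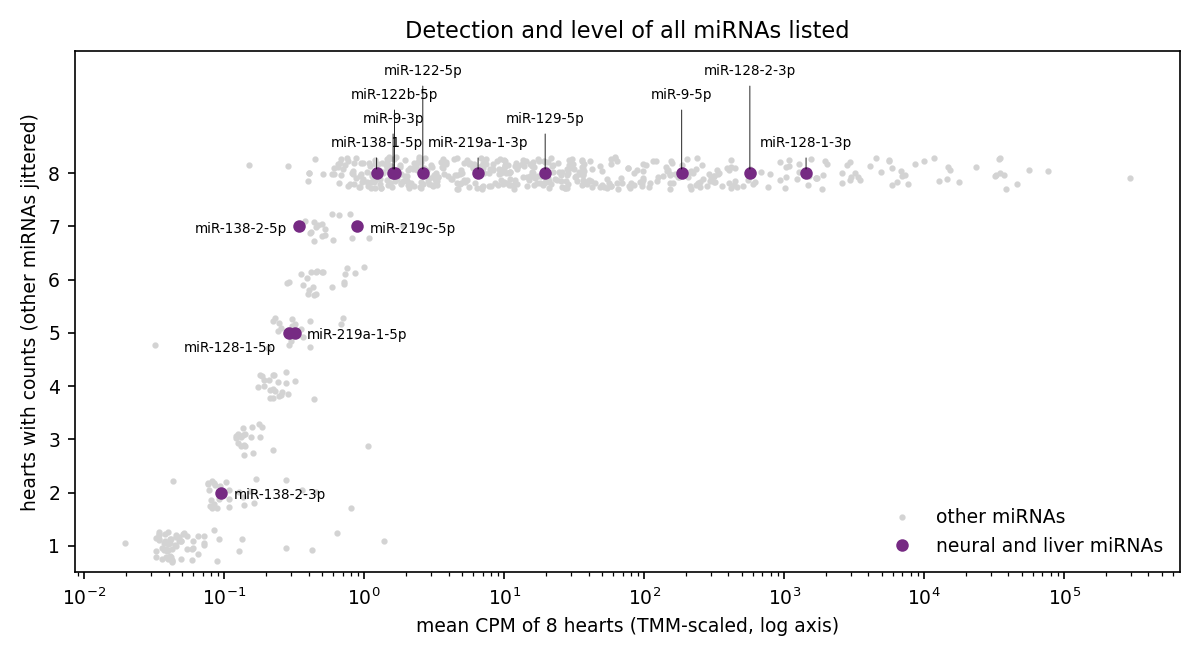
Number of hearts with counts, on the vertical axis, against mean level over the 8 hearts in TMM-scaled CPM on a log axis, with the 14 neural and liver miRNAs in purple and the other miRNAs in grey, shifted slightly up or down so that points can be seen. The 9 steady ones span from 1.23 to 1433 CPM, and the 5 sporadic ones lie below 0.9 CPM.

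The low end of these tables has a step in it that bears on the sporadic miRNAs. Columns for reads unique to 1 entry held 0 values from 1 to 9 and 1382 values from 10 to 19 over all tables. Entries that share reads do hold smaller values, 9 of them among the 16 entries, as in male replicate 1 with 5 counts at mir-138-1 and 6 at mir-138-2 on the 5' arm. Summed over copies of 1 hairpin, 0 of 39 such shared values on mature arms lay from 1 to 9 among the neural and liver miRNAs, beside 72 of 943 over all miRNAs. Apart from the 72, these are the values that a minimum of 10 copies per distinct sequence and a division of shared reads would leave. The source of the 72 was not tested. A count of 0 therefore sets no upper limit, and a heart without counts may still hold a few copies. At a minimum of 20 counts in every heart, 7 miRNAs stayed steady, without miR-9-3p and miR-138-1-5p.

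Each hairpin leaned to 1 arm. The 5' arm held 99.1% of mir-9 counts, 94.5% of mir-138 counts and 100% of the counts of mir-129, mir-122, mir-122b and mir-219c. For mir-122 this share depends on the unknown use of strand, since its 3' arm lies opposite miR-122b-5p. The 3' arm held 100% of mouse mir-128 counts and 1704 of the 1793 arm counts of mir-219a-1. Arm use was compared between the sexes with limma on the log2 ratio of 5' to 3' counts over 150 hairpins, of which 0% passed an adjusted p of 0.05 and 2.67% an unadjusted one. Of the 3 hairpins among the chosen names that could be tested (mir-9, mir-219a-1 and mir-128-1), 0 passed. For mir-9 the ratio differed by -0.37 on the log2 scale (female minus male, SE 0.31, adjusted p = 0.785).

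The share of reads that match the listed mature sequence exactly ranged from near 0 to most of the reads among these miRNAs. Over all miRNAs it was 24.8% ± 0.971 of mature counts in females against 25.7% ± 1.07 in males (SD, n = 4 each), with a median of 22.4% over the 496 steady miRNAs and quartiles of 4.64% and 46.3%. Above the upper quartile stood miR-122b-5p at 81.2%, miR-129-5p at 65.9% and miR-128-2-3p at 47.7% of counts over all hearts. miR-219a-1-3p at 43.0%, miR-9-5p at 38.9% and miR-9-3p at 25.1% lay between the median and the upper quartile. Below the median were miR-122-5p at 20.9%, miR-128-1-3p at 19.1% and miR-138-1-5p at 2.09%. The gap between the mir-128 entries follows from their make-up. Both list nearly the same exact reads and differ mainly in reads unique to 1 entry, 242527 at mir-128-1 and 19739 at mir-128-2. With both summed, miR-128-3p had 29.1% ± 4.14 exact reads in females against 25.5% ± 3.51 in males (SD, n = 4 each).

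In single hearts miR-129-5p held an exact share between 62.9% and 72.5% in all 8 hearts. miR-122-5p held exact reads in 6 hearts, from 16.9% to 39.8%, and none in female replicate 4 and male replicate 4, the 2 hearts with its lowest counts. miR-138-1-5p had 7 exact reads of 335, all in female replicate 3. The same strand listed as miR-138-2-5p had 7 of 93, in that heart as well. Among the sporadic miRNAs miR-219a-1-5p had 0 of 89, while miR-128-1-5p had 76 of 76 and miR-138-2-3p 25 of 25. Over all 693 miRNAs 28.3% had no exact read. With the minimum described above, an exact sequence of fewer than 10 copies would leave no count.

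**Figure D4:**
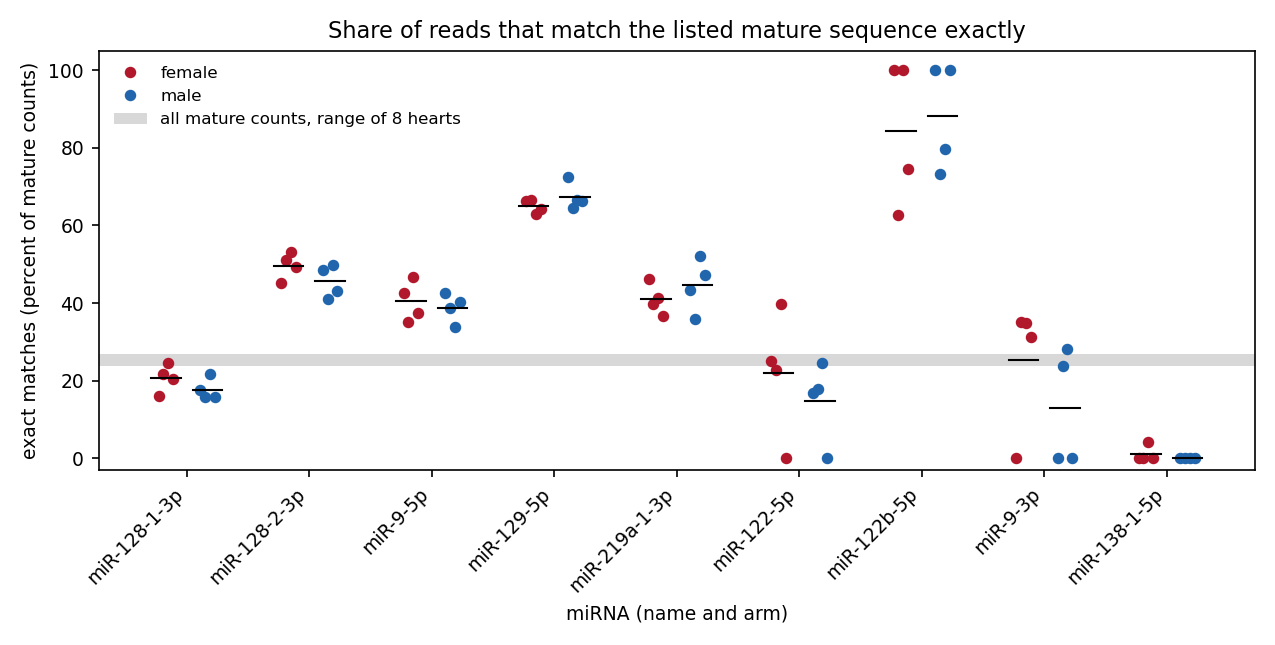
Share of reads matching the mature sequence exactly, in percent of counts, for the 9 steady miRNAs in each heart, with female hearts left of male hearts, a bar at the mean of each sex and a grey band for the range of all mature counts over the 8 hearts. miR-129-5p stays between 62.9% and 72.5%, and miR-138-1-5p is at 0% in 7 of 8 hearts.

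No difference in exact share between the sexes could be called for the 9. The lowest p of a two-sided exact permutation test was 0.171, and every value adjusted over the 9 was 0.669 or more. With 4 against 4 hearts this test cannot go below 0.0286, that being 2 of 70 arrangements. Adjusted over the 9, a single miRNA could not go below 0.257, so the adjusted values say little about equality.

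Levels were compared between female and male hearts with edgeR's quasi-likelihood test over 572 miRNAs, of which 0.175% passed an adjusted p of 0.05. Of the 14 neural and liver miRNAs 13 passed the filter on low counts, and 0 of the 13 passed the test. At an unadjusted p of 0.05, 5.07% of all miRNAs and 1 of the 13 passed, and DESeq2 also gave 0 of the 13. The fitted log2 fold change (female over male) was above 0 for 9 of the 13 and below 0 for 4, with a median of 0.40, beside 54.7% above 0 and a median of 0.03 over all 572. In none of the 13 did the 4 female and the 4 male hearts lie fully apart, which over all miRNAs occurred in 1.92% with females above and 0.699% with females below.

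The single unadjusted difference was that of miR-138-1-5p. It averaged 1.84 ± 1.75 CPM in females against 0.608 ± 0.358 CPM in males (SD, n = 4 each), a log2 fold change of 1.60 (SE 0.69, adjusted p = 0.786 in edgeR). Without female replicate 3 it was 0.74. Next came miR-128-1-3p, at 1192 ± 324 CPM in females against 1675 ± 367 CPM in males (SD, n = 4 each), with a log2 fold change of -0.49 (SE 0.24, adjusted p = 0.786). miR-128-2-3p, which shares reads with it, gave -0.42 (SE 0.24), and both entries summed gave -0.53 (SE 0.26). The 3 values are not independent of each other. Without female replicate 3, miR-128-1-3p gave -0.27 and miR-128-2-3p -0.23.

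For miR-122-5p the log2 fold change was -0.63 (SE 0.51, adjusted p = 0.807), and without male replicate 1 it was 0.04. miR-451a-5p, the red cell miRNA, stood at 123 CPM in that heart and was highest in male replicate 2, where miR-122-5p stood at 2.74 CPM. The summed level of the 11 miRNAs on the red cell list, all steady, ran from 7040 to 11777 CPM in females and from 8329 to 10837 CPM in males. Most of it was miR-486a-5p and miR-486b-5p, so the sum follows that pair and says little about miR-144 or miR-451a-5p. Within the same list the log2 fold change was -1.82 for miR-144-3p, -2.17 for miR-144-5p and -2.11 for miR-451a-5p. For miR-486a-5p it was -0.12 and for miR-486b-5p -0.08. Of the 11 values on the list, 4 were above 0 and 7 below. In edgeR 0 of the 11 passed the adjusted threshold, with 2 at an unadjusted p under 0.05. The part of red cells in the values of the neural and liver miRNAs was not tested. For miR-9-5p the value was 0.15 (SE 0.24), for miR-129-5p 0.40 (SE 0.26), for miR-219a-1-3p -0.06 (SE 0.30) and for miR-122b-5p 0.47 (SE 0.42). Without female replicate 2 the value for miR-122b-5p was 0.06. miR-9-3p gave 0.38 (SE 0.45). The 4 sporadic miRNAs that were tested had values from 0.87 to 1.30 with standard errors of 0.83 to 1.41, and at least 1 heart at 0 each. These intervals are wide, and a p that misses the threshold does not show equal levels.

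**Figure D5:**
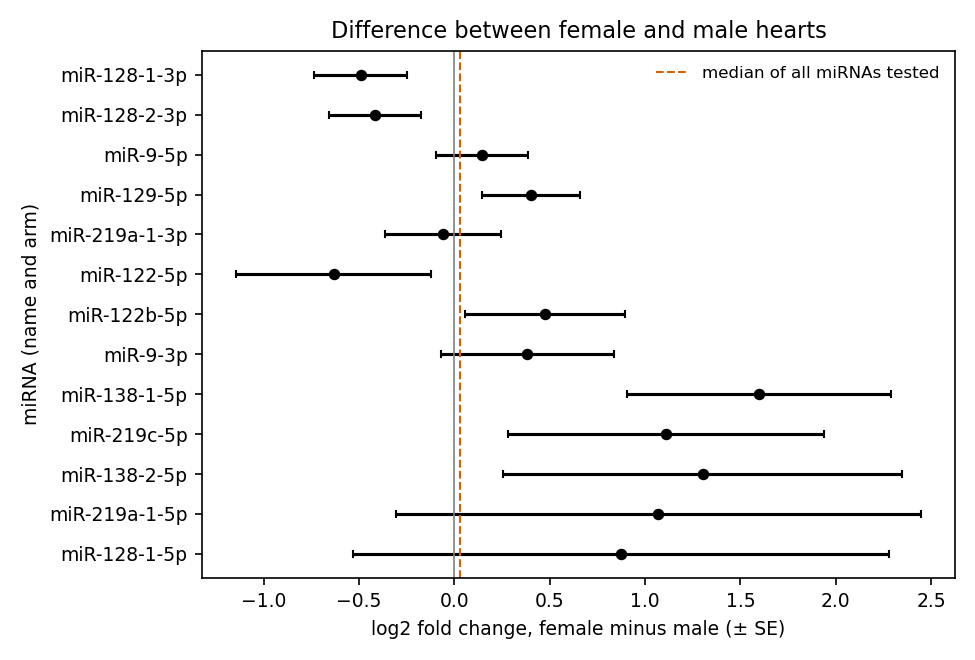
Log2 fold change, female over male, of the 13 tested miRNAs from edgeR, with bars of 1 standard error, a grey line at 0 and a dashed line at the median of all miRNAs tested, 0.03. None passes an adjusted p of 0.05, and miR-138-1-5p at 1.60 is the single one with an unadjusted p under 0.05.

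Across the 8 hearts the steady miRNAs varied along with different partners. By Pearson's r of log2 CPM among 559 other tested miRNAs, miR-128-1-3p was most like miR-98-5p (0.93), miR-99a-5p (0.91) and miR-340-3p (0.90), and miR-128-2-3p was most like miR-3074-5p (0.93), miR-335-3p (0.90) and miR-98-5p (0.89). miR-9-5p was most like miR-1843a-3p (0.97), then its opposite-strand partner miR-9b-3p (0.94, Spearman's rho 0.93) and miR-135a-5p (0.93). miR-138-1-5p was most like the muscle miRNA miR-133b-3p (0.94), then miR-378a-5p and miR-133c-5p (0.89 each). miR-122-5p was most like miR-322-2-3p and miR-322-1-3p (0.83 each), entries that themselves hold nearly the same level, and then miR-298-5p (0.79). The highest of so many coefficients over 8 points is large in any case, and all points share library depth and scaling.

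For miR-129-5p the partners were miR-541-5p (0.81), miR-409b-5p (0.81) and miR-99b-3p (0.79). For miR-219a-1-3p they were miR-134-5p (0.89), let-7k-5p (0.89) and miR-1843b-5p (0.88). miR-122b-5p was most like miR-145-3p (0.93), miR-669c-5p (0.89) and miR-200a-3p (0.88), and miR-9-3p most like miR-872-5p (0.92), miR-135a-5p (0.88) and miR-99a-3p (0.87). Among the chosen miRNAs themselves, the mir-128 entries gave r = 0.95, which their shared reads enter, and the 2 arms of mir-9 gave 0.88. miR-128-1-3p and miR-138-1-5p ran against each other, with r = -0.74. Female replicate 3, lowest for the first and highest for the second, is one of the 8 points. miR-9-5p and miR-122-5p gave -0.42.

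Other miRNAs enriched in nervous tissue were listed too, and they spread as widely. Of 11 names 9 had counts, giving 14 miRNAs of which 9 were steady, while mir-137 and mir-383 had none. miR-218-5p, known from motor neurons and encoded in introns of the Slit genes, averaged 565 ± 116 CPM in females against 629 ± 138.1 CPM in males (SD, n = 4 each), close to miR-128-2-3p. miR-153-3p, a brain miRNA, had counts in 3 hearts only. miR-338, which acts beside miR-219 in oligodendrocytes, also appeared on the strand it is less known for. miR-338-5p averaged 9.50 ± 2.12 CPM in females against 10.8 ± 3.08 CPM in males, and miR-338-3p had counts in 1 heart. Entries opposite mir-338 were not looked up, so reads of miR-338-3p listed under such an entry would be missed here. Of the 10 that were tested, 0 passed, with 1 log2 fold change above 0, 9 below and a median of -0.24.

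Of 5 other liver-enriched names 4 had counts, and mir-802, a hepatocyte miRNA, had none. miR-148a-3p was among the most abundant miRNAs of these hearts, at 32556 ± 11750 CPM in females against 43690 ± 12667 CPM in males (SD, n = 4 each). miR-192-5p, also known from liver, gut and kidney, averaged 615 ± 168 CPM in females against 740 ± 71.4 CPM in males. Both stood far above miR-122-5p. Of the 7 miRNAs from these names 7 were tested and 0 passed, with 4 log2 fold changes above 0, 3 below and a median of 0.01.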

How the data were processed

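Small RNA was sequenced from 4 female and 4 male hearts. Per the file headers, the deposited tables hold counts of reads per miRNA hairpin entry and arm, with columns for reads unique to an entry and exact matches. Shared reads were taken as the counts of an arm minus those unique to the entry. The submitters' processing notes name STAR and mm10. Which tool did the counting, with what filters and whether by strand, is not given in the sources used here. Entries of 1 name and arm were summed over species, and numbered copies where under 50% of mouse reads were unique to 1 copy. Reads outside both arms stayed out of library sizes and tests. Total counts per library, 29900500 to 38894987, set the precision.

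Sexes were compared with edgeR 4.0.16 (quasi-likelihood, TMM, filterByExpr with minimum count 10) and arm ratios with limma 3.58.1 (pseudocount 0.5, mean of at least 50 counts), both with Benjamini-Hochberg adjustment and a threshold of 0.05, tested on simulated data first. Standard errors came from the fold change and the F value of its test. Positions are GRCm38, from RefSeq and GENCODE; 13 of 13 mouse hairpins matched a gene and 11 the RefSeq sequence table. Alternatives included DESeq2 1.42.0, other scalings and filters, and leaving out each heart. All 16 entries are accounted for, steady miRNAs in full, with the 3 miRNAs most like each steady one. The miRNAs and lists were chosen with earlier results of these data known. For miR-122 and miR-122b no sequence is shown.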

Additional observations from a re-analysis of the deposited data

Results flagged for a closer look

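In 6 of 52 groups of 4 hearts, the highest or lowest heart lay further from the others than Dixon's 95% limit allows, where chance gives about 1 in 20 groups, or 2.6. In 3 of the 6 the other hearts were all at 0, so that any count at all passes the limit and the chance rate does not apply. miR-129-5p stood at 22.0 CPM in male replicate 3, against 14.6 to 15.8 CPM in the other male hearts. miR-138-1-5p stood at 4.44 CPM in female replicate 3, against 0.650 to 1.25 CPM in the other female hearts, and its exact share there was 4.29%, against 0% in the others. miR-138-2-3p was listed at 0.445 CPM in female replicate 4 and at 0.317 CPM in male replicate 1, against 0 in the other hearts of each sex. The exact share of miR-9-3p was 0% in female replicate 1, against 31.1% to 35.1% in the other female hearts.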

How the results depend on the processing

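In every alternative run, 0 of the neural and liver miRNAs passed the adjusted threshold in the comparison of levels. Over all miRNAs 1 passed, against 0 with RLE factors, 0 with library size alone, 0 with entries as deposited, 3 with DESeq2, 4 with the replicate block, and 0 to 2 without 1 heart. The cause was not tested. Replicate numbers are shared by the sexes, but the deviations of same-numbered hearts correlated at 0.33, 0.27, 0.203 and -0.00057, so 1 pair missed the 0.1 asked of every pair and the hearts were not treated as paired, although 6 of 8 hearts correlated best with their own number. With copies of mir-128 and mir-138 summed, chosen after seeing the data, again 0 of the neural and liver miRNAs passed. Of 211 log2 fold changes for single miRNAs under alternatives, 205 kept their sign, 6 changed it and 0 passed the threshold. Exact shares could not pass it without 1 heart or with the block, where the smallest p was 0.0571 and 0.125. With library size alone miR-219a-1-3p gave 0.07, and with mouse entries only the exact share of miR-122b-5p was 6.89 percentage points higher in females. Leaving out 1 heart gave log2 fold changes of -0.97 to 0.04 for miR-122-5p, -0.3 to 0.06 for miR-219a-1-3p and -0.03 to 0.27 for miR-9-5p, 0.06 to 0.73 for miR-122b-5p, -0.63 to -0.27 for miR-128-1-3p and -0.59 to -0.23 for miR-128-2-3p, and exact share differences of -0.41 to 3.44 percentage points for miR-9-5p and -9.1 to 3.33 for miR-122b-5p. With exact reads only 6 miRNAs were steady, without miR-122-5p, miR-9-3p and miR-138-1-5p, and with mouse entries only 9 were. Depth limits the rarest miRNAs, since sequences under 10 copies appear to leave no count.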
